A study of Homo sapiens with 6 samples.

Results

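The 9 genes described here encode subunits of the transcription factor AP-1: the Fos family (FOSL1, FOSL2, FOS and FOSB), the Jun family (JUN, JUNB and JUND), and ATF3 and BATF3, which belong to the wider group of basic leucine zipper proteins that pair with Jun proteins. They were chosen by name from a table of 19970 protein-coding genes (autosomes and chromosome X), and each was examined over its annotated span plus 20 kb on both sides, called its window below. The data are 6 CUT&Tag libraries of MDA-MB-231 cells, an established triple-negative breast cancer cell line, in which antibody-tethered Tn5 transposase cuts out DNA near the antigen. NONO, an RNA- and DNA-binding nuclear protein, was profiled in NC (negative control) cells, labelled wild type, and in NONO-KD cells, and the histone H3 marks H3T11ph (phosphorylated threonine 11) and H3K27ac (acetylated lysine 27) were each profiled in NC and in PKM2-KD cells. PKM2 is a pyruvate kinase isoform that can also act as a protein kinase in the nucleus. The study asked how the 3 signals meet at genes, and how PKM2 knockdown (KD) bears on the 2 histone marks. Every group had 1 library, so there is no replicate check, and each difference below is between 2 libraries and not between conditions. The knockdown reagent used for these libraries is not given in the sources used here, and lists of chromatin regions hold no RNA with which to check it.

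AP-1 is a dimer of a Fos, ATF or BATF protein with a Jun protein, or of 2 Jun proteins, and it binds short palindromic DNA elements at enhancers and promoters. FOS, FOSB, JUN, JUNB and ATF3 are classical immediate early genes, switched on within minutes to hours by growth factors, serum or stress. FOSL1 and FOSL2 encode the later Fra-1 and Fra-2 proteins, and Fra-1 is well known as an abundant AP-1 subunit of mesenchymal, invasive breast cancer cells. H3K27ac marks active promoters and enhancers.

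The lists were not all called alike. In the H3K27ac NC and NONO NC lists, 79.3% and 94.6% of the rows were as narrow as the narrowest one (112 and 269 bp), against 1.19% to 2.05% in the other 4 lists. The H3K27ac lists had 572970 regions (NC) and 212856 regions (PKM2-KD). The counts were 42674 and 36583 for H3T11ph and 89474 and 44349 for NONO in NC and NONO-KD. Within the H3K27ac and the NONO pair, processing and knockdown therefore cannot be told apart. The depth implied by the callers' backgrounds was close within each histone pair, at 7.46 and 7.48 fragments per kb for H3K27ac and 3.35 and 3.42 for H3T11ph, and was 3.34 and 2.84 for NONO. The 4 mesenchymal markers VIM, CD44, AXL and CAV1 had a median of 13.7% of their windows under H3K27ac in NC and 16.7% in PKM2-KD. Of the 4 luminal and epithelial markers, ESR1, PGR and CDH1 were at or below 2.86% in both lists, but GATA3 was at 12.5% and 10.8%.

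The promoters shown first are those of the 4 members with an H3T11ph region on or just upstream of the annotated start in the PKM2-KD list. An H3T11ph region lay within 1 kb of the start at 7 of the 9 members in PKM2-KD and at 4 in NC. Of all genes, 16% had one in PKM2-KD and 16.1% in NC. With 1 library per list, this difference was not tested. Each sequence is the 250 bases upstream of the start in RefSeq (GRCh38.p14), 5′ to 3′ on the strand of the gene, and capitals mark the bases inside the H3T11ph region of PKM2-KD. RefSeq starts with sequence were matched for 7 of the 9 genes. FOSL1 and BATF3 had no entry, so positions for these 2 are counted from either end of the gene. The FOSL2 promoter lies at chr2:28392608-28392857 (plus strand), JUN at chr1:58784048-58784297 (minus strand), JUNB at chr19:12791236-12791485 (plus strand) and JUND at chr19:18281623-18281872 (minus strand).
JUN: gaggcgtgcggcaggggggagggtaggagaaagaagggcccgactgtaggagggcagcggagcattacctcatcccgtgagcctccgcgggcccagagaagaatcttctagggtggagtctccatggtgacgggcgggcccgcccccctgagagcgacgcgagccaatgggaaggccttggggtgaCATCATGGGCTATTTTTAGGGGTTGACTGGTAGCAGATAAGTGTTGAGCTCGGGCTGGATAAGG
JUND: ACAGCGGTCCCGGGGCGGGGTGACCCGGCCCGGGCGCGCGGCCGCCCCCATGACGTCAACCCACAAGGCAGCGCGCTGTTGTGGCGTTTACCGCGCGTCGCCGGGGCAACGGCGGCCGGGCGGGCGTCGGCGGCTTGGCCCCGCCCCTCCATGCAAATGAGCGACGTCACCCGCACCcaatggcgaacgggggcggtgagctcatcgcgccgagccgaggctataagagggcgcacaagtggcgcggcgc
JUNB: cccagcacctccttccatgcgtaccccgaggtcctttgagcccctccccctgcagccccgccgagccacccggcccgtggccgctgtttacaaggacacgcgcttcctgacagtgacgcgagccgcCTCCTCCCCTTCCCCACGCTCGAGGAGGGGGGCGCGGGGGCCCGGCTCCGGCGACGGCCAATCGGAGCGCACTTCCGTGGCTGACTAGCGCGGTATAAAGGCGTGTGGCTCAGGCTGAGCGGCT
FOSL2: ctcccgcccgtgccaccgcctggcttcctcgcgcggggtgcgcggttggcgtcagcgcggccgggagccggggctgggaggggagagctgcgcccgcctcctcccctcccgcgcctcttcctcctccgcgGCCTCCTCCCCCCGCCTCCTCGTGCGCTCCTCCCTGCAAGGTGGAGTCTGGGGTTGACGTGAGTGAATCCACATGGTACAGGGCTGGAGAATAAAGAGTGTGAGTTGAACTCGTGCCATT
Of these 250 bases, the H3T11ph region of PKM2-KD took in 64 at JUN, 177 at JUND, 124 at JUNB and 120 at FOSL2. In NC it took in 214 at JUN, 114 at JUND and 0 at JUNB and FOSL2. The JUN promoter was also wholly inside H3K27ac regions of both lists, with 250 of 250 bases in each. The JUND promoter held no base of H3K27ac in either list, so at JUND the phosphorylation signal lay in the gap between acetylated regions upstream and downstream. G and C made up 62% of the JUN promoter, 69.6% at FOSL2, 70.8% at JUNB and 74.8% at JUND.

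AP-1 and ATF proteins are known to bind 2 closely related elements, TGACTCA (the TRE) and TGACGTCA (the CRE). Both, and the CRE-like TGACATCA known from the JUN promoter, were searched on both strands of the 250 upstream bases. The CRE was found in the JUND promoter, 200 to 193 bases before the start and within the capitals above, and in 2.01% of 22139 promoters of protein-coding genes. TGACATCA was found 67 to 60 bases before the JUN start, across the upstream edge of the capitals, and 123 to 116 bases before an ATF3 start, against 1.94% of all promoters. The TRE was present in 3.45% of promoters, and the CArG box, the element of serum response factor, in 262 of the 22139. Neither was found in the 250 upstream bases of the 7 members, and bases farther upstream were not searched. A match is a description of the letters in these windows and is no measure of binding.

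FOSL1 had the largest share of its window under H3K27ac of all 19970 genes, in both lists. In NC, 21 regions covered 22275 bp, or 45.9% of the window, and in PKM2-KD 26 regions covered 26512 bp, or 54.7%. The median gene had 3.64% and 2.59%. Part of the place in this order is shared, because the FOSL1 window holds all or part of 6 other genes (EFEMP2, CTSW, FIBP, CCDC85B, C11orf68 and DRAP1), and the next ranks in NC were held by C11orf68 (45.9%), DRAP1 (40.3%) and CCDC85B (35.1%). Within the FOSL1 gene itself, at chr11:65892049-65900545, 70.5% of bases were acetylated in NC and 88% in PKM2-KD.

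**Figure D1:**
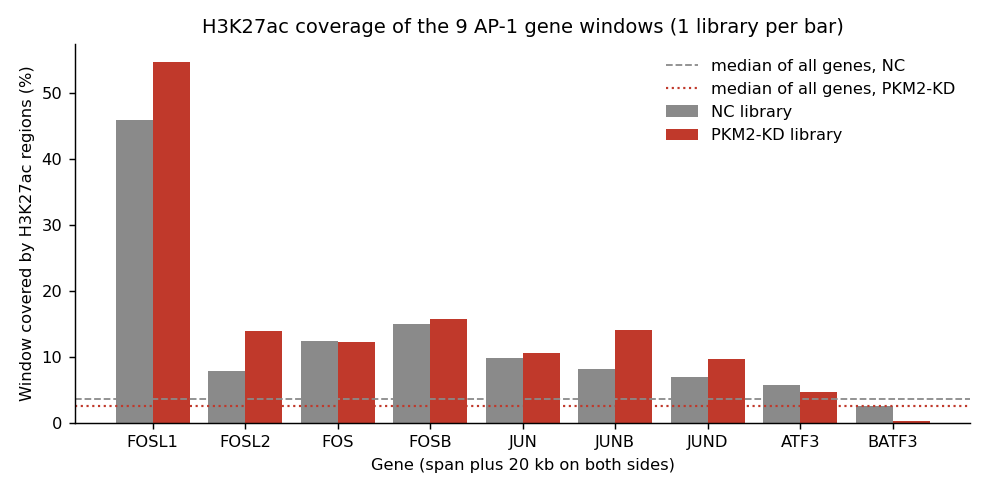
Percentage of each gene window (gene span plus 20 kb on both sides) covered by H3K27ac regions in the NC library (grey bars) and the PKM2-KD library (red bars), with the median of all 19970 genes as dashed and dotted lines. FOSL1 stands at 45.9% and 54.7%, every other member is at or below 15.7%, and only BATF3 is below the all-gene median in both lists.

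The remaining Fos family genes had less of their windows covered. FOSL2, on chromosome 2, had 5019 bp in 19 regions in NC and 8989 bp in 13 regions in PKM2-KD, or 7.79% and 13.9% of its window. FOS, on chromosome 14, had nearly equal coverage in the 2 lists, 5381 bp in 19 regions and 5326 bp in 7 regions (12.4% and 12.3%). FOSB, on chromosome 19, had 7072 bp in 26 regions and 7387 bp in 15 regions (15% and 15.7%). All 3 genes thus had fewer, wider regions in PKM2-KD, with clearly more bases at FOSL2 and nearly the same number at FOS and FOSB.

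In the Jun family, JUN is the classical partner of Fos proteins, while JUNB and JUND are its close relatives with weaker or opposing activity in many settings. JUN had 4253 bp in 13 regions in NC and 4597 bp in 9 regions in PKM2-KD (9.83% and 10.6%). JUNB had 3418 bp in 20 regions and 5875 bp in 14 regions (8.17% and 14%). JUND had 2919 bp in 15 regions and 4051 bp in 12 regions (6.96% and 9.66%). All 3 Jun genes had more covered bases and fewer regions in PKM2-KD than in NC. The JUNB and JUND windows include 4 and 1 other genes, whereas the windows of JUN, FOSL2, FOS and BATF3 include none.

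ATF3, a stress-induced member that often represses, and BATF3, a small partner of Jun proteins best known from dendritic and T cells, lie close together on chromosome 1. ATF3 had 5527 bp in 29 regions in NC and 4461 bp in 11 regions in PKM2-KD (5.80% and 4.68%). BATF3 had 1389 bp in 11 regions in NC and a single region of 139 bp in PKM2-KD (2.60% and 0.26%). BATF3 was the only member with less coverage than the median gene in both lists, at rank 14130 and 18763 of 19970. Its tallest region reached 19 fragments in NC (exact Poisson 95% interval 11.4 to 29.7) and 5 in PKM2-KD (1.62 to 11.7).

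Summed over the 9 windows, H3K27ac covered 57253 bp in NC and 67337 bp in PKM2-KD, which is 118% of NC, while the whole PKM2-KD list covered 69.6% of the bases of the NC list. The whole list also holds regions outside gene windows. Over the windows of genes covered in both lists the median ratio was 76.3%, beside a median of 108% over the members. Coverage was larger in PKM2-KD at 6 members (FOSL1, FOSL2, FOSB, JUN, JUNB and JUND) and smaller at 3 (FOS, ATF3 and BATF3). Among the genes with any coverage, 31.1% had more in PKM2-KD and 68.9% had less. A difference of at least 1.5 times in favour of PKM2-KD was found at FOSL2 and JUNB, against 10.9% of genes, and one in favour of NC at BATF3, against 43.8% of genes. The number of regions was higher in PKM2-KD only at FOSL1, a direction seen in 5.13% of genes.

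These directions move with how the lists are cut. With the NC list shortened to the number of regions in PKM2-KD by −log10 p, 8 members had more coverage in PKM2-KD, but so did 74.5% of all genes, and the sum over the members was 145% of NC beside 137% for the whole list. Requiring a −log10 q of at least 5 gave 8 members beside 66.7% of genes, with 144% for the members and 130% for the list. The members' greater coverage in PKM2-KD was thus close to that of all genes once the many narrow, weak regions of the NC list were set aside.

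The share of acetylated bases common to the 2 H3K27ac lists differed widely among these genes. Of the members' NC bases, 70.9% were also acetylated in PKM2-KD, against 24.6% over the whole list, and of their PKM2-KD bases 60.3% were also acetylated in NC, against 35.3%. The whole list is not limited to gene windows, and the members were not matched to genes of like acetylated share. The share of NC bases kept was 90.8% at FOSL1, between 62.7% and 69.6% at FOSL2, FOS, FOSB, JUN and JUNB, 48.7% at ATF3, 32.2% at JUND and 0% at BATF3. FOSL1 supplied 20223 of the 40609 shared bp, and without it 58.3% of NC bases and 49.9% of PKM2-KD bases were shared. Fewer than 40% of the PKM2-KD bases were in NC at JUND (23.2%), JUNB (36.5%), FOSL2 (38.8%) and BATF3 (0%). FOSL2 and JUNB, the members with the largest relative excess in PKM2-KD, had 5497 and 3731 bp that were acetylated only there. Without the FOSL1 window, 38.2% of the members' NC regions met a PKM2-KD region (58 of 152, Wilson 95% interval 30.8 to 46.1), against 13.3% of the whole list. In the other direction 48 of 82 PKM2-KD regions met an NC region (58.5%, 47.7 to 68.6), against 33.2%.

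**Figure D2:**
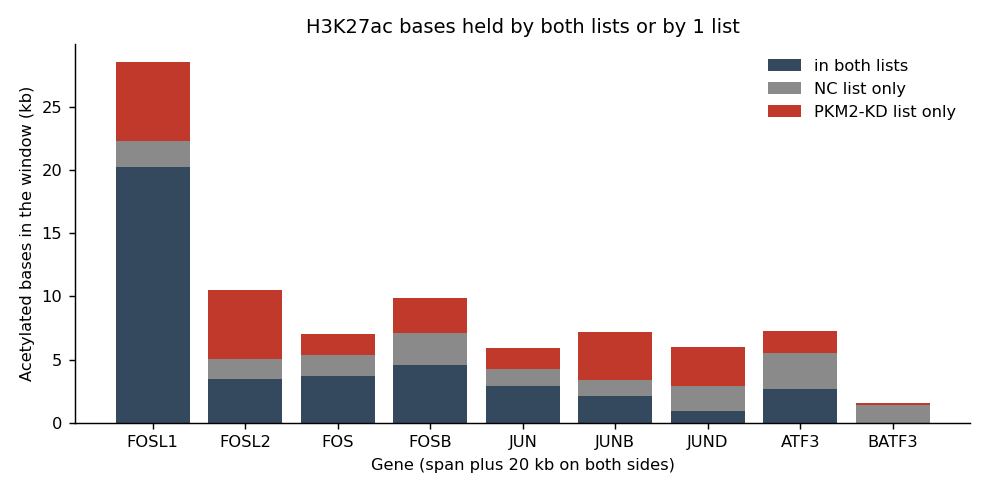
Acetylated bases of each gene window in kb, stacked as bases in both H3K27ac lists (dark), in the NC list only (grey) and in the PKM2-KD list only (red), 1 library per list. At FOSL1 20223 bp are shared, while at BATF3 the 1389 NC bases and the 139 PKM2-KD bases do not coincide.

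The acetylated regions had a recurrent layout at several members. At FOS, a region over the start (644 bases before to 233 after it in NC, 732 before to 516 after it in PKM2-KD) was accompanied in both lists by a region about 20 kb upstream and by one beginning 15178 bases downstream of the start in NC and 14706 in PKM2-KD. From upstream to downstream, the summits at these 3 places held 49, 91 and 82 fragments in NC and 64, 78 and 68 in PKM2-KD. The region over the start was the tallest of the 3 in both lists, and its intervals overlapped between the lists (73.3 to 112 and 61.7 to 97.3 fragments). At JUN, an NC region from 1924 to 497 bases before the start and another over the start corresponded to 1 PKM2-KD region of 2005 bp that ran from 1774 bases before to 230 after it. A distal JUN region lay 20478 to 21350 bases downstream of the start in NC and 20276 to 21357 bases in PKM2-KD.

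At JUNB, the NC regions between 1258 bases before and 1390 after the start, each of 178 to 357 bp, faced 2 wide PKM2-KD regions of 978 and 1638 bp. These 2 ran from 1315 to 338 bases before the start and from 165 before to 1472 after it. At FOSL2, the PKM2-KD list held a region of 2926 bp upstream of the start and one of 2236 bp inside the gene, where the widest NC region had 1107 bp. At FOSB the regions with most fragments lay inside the gene, from 1358 bases after the start in NC (113 fragments) and from 1436 bases after it in PKM2-KD (94 fragments). An H3K27ac region within 1 kb of the start was present in both lists at 8 of the 9 members, all but BATF3, against 53.6% of all genes. A region over the start base itself in both lists was found at 4 members, FOSL1, FOS, JUN and JUNB, against 22.9% of all genes.

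**Figure D3:**
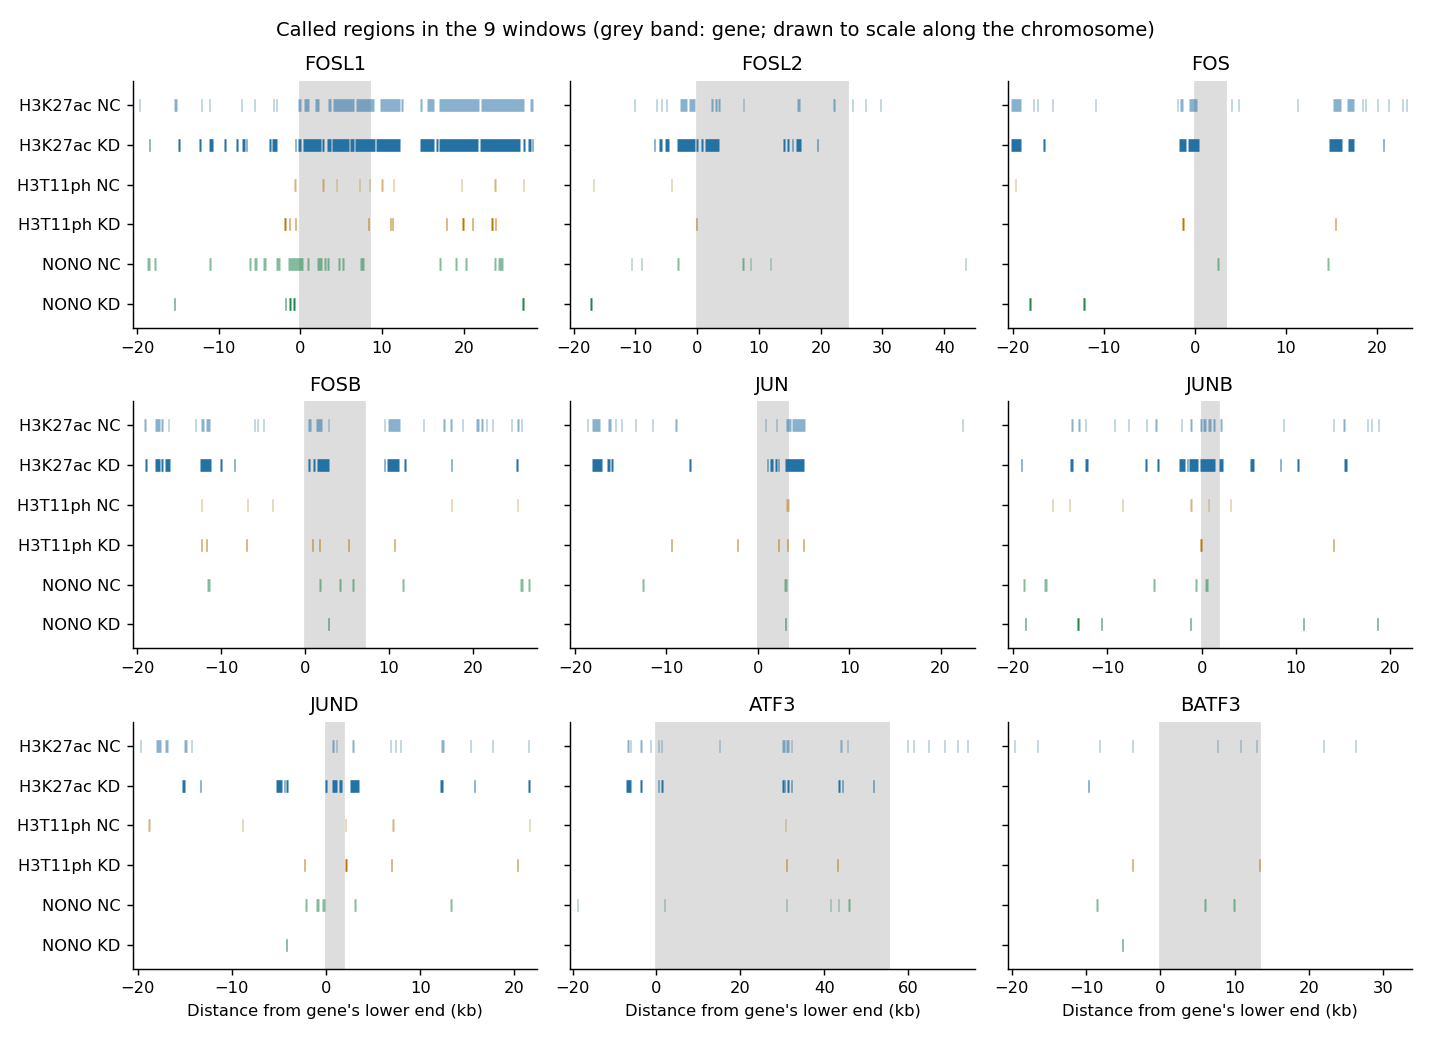
Regions of the 6 lists in each of the 9 windows, drawn to scale along the chromosome in kb from the lower-coordinate end of the gene (grey band), with 1 row per library and paler colour for NC. FOSL1 is covered by broad H3K27ac regions from the gene to the right end of the window in both lists, and BATF3 holds 1 H3K27ac region in PKM2-KD.

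The tallest H3K27ac region of the FOSL1 window was also the tallest of all member windows. It spanned 5254 bp in NC (chr11:65914159-65919412) and 4807 bp in PKM2-KD (chr11:65914078-65918884), touched the neighbouring gene C11orf68, and reached 516 fragments (472 to 563) and 595 fragments (548 to 645). A second broad region of 4876 and 4686 bp began 8494 bases beyond the upper end of FOSL1 in both lists and touched no protein-coding gene, with 201 and 248 fragments. At the upper end of the FOSL1 gene, a region of 2250 bp in NC and 2442 bp in PKM2-KD reached 145 (122 to 171) and 223 fragments (195 to 254). These intervals, of counting error only, did not overlap. The tallest regions of the window thus lay beyond the gene and not on it.

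The local background used in calling was also high at many of these regions. At the tallest FOSL1 region it was 85.1 times the commonest background of the list in NC and 45.3 times in PKM2-KD, and the median over the FOSL1 regions was 5.38 and 4.68 times. At FOSL2 and ATF3 the tallest NC region lay at 1.00 times the commonest background. Their tallest PKM2-KD regions, at other places, lay at 22.6 and 15.4 times, with folds of 3.13 and 3.77. The fold values of the lists are therefore not comparable between these genes: the tallest FOSL1 region had a fold of 7.10 in NC with 516 fragments at its summit, whereas the tallest ATF3 region had a fold of 19.2 with 51 fragments (38 to 67.1). What raised the background was not tested.

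The tallest H3K27ac region lay at the same place in the 2 lists at FOSL1, FOS, FOSB and JUN, and at different places at the other 5 members. At JUN it held 82 fragments in NC (65.2 to 102) and 90 in PKM2-KD (72.4 to 111), and at FOSB 113 (93.1 to 136) and 94 (76 to 115). For the other 5, the tallest NC region was set beside the PKM2-KD region that overlapped it. This gave 73 fragments in NC (57.2 to 91.8) and 70 in PKM2-KD (54.6 to 88.4) at JUNB, 40 (28.6 to 54.5) and 42 (30.3 to 56.8) at JUND, 51 (38 to 67.1) and 37 (26.1 to 51) at ATF3, and 32 (21.9 to 45.2) and 49 (36.3 to 64.8) at FOSL2. The intervals overlapped between the lists in each of these pairs. At BATF3 no PKM2-KD region overlapped the tallest NC region of 19 fragments. The tallest FOSL2 region of PKM2-KD, over the start, held 62 fragments (47.5 to 79.5) over a local background of 19.1. These intervals cover counting error only, and without replicates they say nothing of the spread between cultures.

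**Figure D4:**
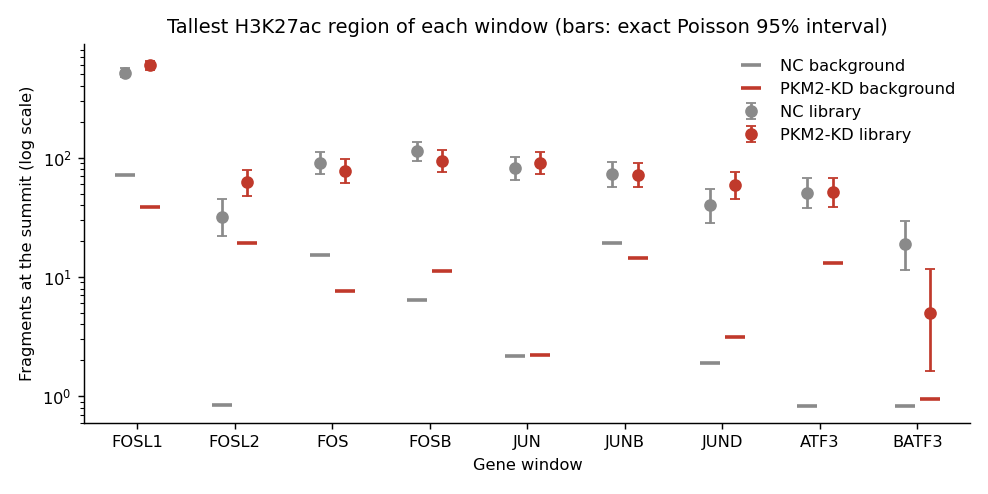
Fragments at the summit of the tallest H3K27ac region in each gene window (log axis) in the NC (grey) and PKM2-KD (red) library, with exact Poisson 95% intervals as bars and the local background used in calling as a dash. FOSL1 holds 516 and 595 fragments, and BATF3 holds 19 and 5.

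H3T11ph is the mark that PKM2 is known to write, and its 2 lists were more alike than those of the other pairs, with 1.81% and 1.42% of rows at the narrowest width. The narrowest width itself was 111 bp in NC and 91 bp in PKM2-KD, and the calling options are not known. Over the 9 windows, NC gave 31 regions and PKM2-KD gave 37, a ratio of 119% (95% interval 74.4 to 192), while the whole list in PKM2-KD had 85.7% of the regions of NC. The interval of the members' ratio includes both 100% and the ratio of the whole list. FOSL1 had most in both lists, 10 in NC against 11 in PKM2-KD, and was followed by JUNB in NC with 6 and by FOSB in PKM2-KD with 8.

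JUN had 1 H3T11ph region in NC and 5 in PKM2-KD, FOSB 5 and 8, FOS and ATF3 1 and 2 each, and BATF3 0 and 2. FOSL2 had 2 and 1, JUNB 6 and 2, and JUND 5 and 4. Counts were thus higher in PKM2-KD at 6 members (36.1% of the genes with any H3T11ph region) and lower at 3 (45.6%). Counts this small leave a wide counting error at each single gene. Of the 31 NC regions, 9 met a PKM2-KD region (29%, Wilson 95% interval 16.1 to 46.6), against 5.75% of the whole list, and 9 of the 37 PKM2-KD regions met an NC region (24.3%, 13.4 to 40.1), against 6.98%. Among the NC regions of FOSL1 this held for 5 of 10 regions, and at the other 8 genes for 4 of 21 (19%, 7.67 to 40).

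Within 1 kb of the start, H3T11ph was called in both lists at FOSL1, JUN, JUNB and JUND, or 4 of 9, where 5.6% of all genes had it. At JUN, the NC region ran from 214 bases before to 146 after the start with 120 fragments at its summit (99.5 to 143), and the PKM2-KD region from 64 before to 111 after it with 106 (86.8 to 128). At JUND the NC region lay 233 to 120 bases before the start with 68 fragments (52.8 to 86.2), and the PKM2-KD region 257 to 74 bases before it with 59 (44.9 to 76.1). For both genes the intervals of the 2 lists overlapped. At JUNB the 2 lists had different places: a region 709 to 833 bases after the start in NC with 27 fragments, and one from 124 before to 88 after it in PKM2-KD with 72 (56.3 to 90.7).

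At the upper end of FOSL1, the NC region ran from 109 bases inside the gene to 48 beyond it with 31 fragments (21.1 to 44). The PKM2-KD region lay 211 to 50 bases inside the gene with 86 (68.8 to 106), and the intervals of the 2 lists did not overlap. The summits were at different positions, 33 bases inside the gene end in NC and 177 in PKM2-KD. The region over the FOSL2 start, 120 bases before to 18 after it, was called only in PKM2-KD, with 47 fragments (34.5 to 62.5). At ATF3 the NC list had 1 region with 4 fragments at its summit. The PKM2-KD list had a region of 107 fragments inside the ATF3 gene, at chr1:212608424-212608760. It overlapped an acetylated region of PKM2-KD and also a NONO region of NC. The local background was high at these places too, at 32.4 times the commonest value for JUN, 59.1 times for JUND in NC and 65 times for the ATF3 region in PKM2-KD.

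NONO regions in the 9 windows numbered 57 in NC and 19 in NONO-KD, or 33.3% of NC (95% interval 19.9 to 55.7), where the whole NONO-KD list had 49.6% of the NC regions. The interval includes the ratio of the whole list, and with the NC list shortened to the length of NONO-KD the members' ratio was 67.9%, from 28 and 19 regions. NONO-KD had fewer regions at 7 members, in a list in which 77.6% of genes with any NONO region had fewer. FOSL1 again had most in NC, with 20 regions, and 6 in NONO-KD. FOSL2 and FOSB had 7 and 1 each, ATF3 6 and 0, JUND 5 and 1, BATF3 3 and 1, and JUN 2 and 1. FOS had 2 in both, and JUNB was the exception with 5 in NC and 6 in NONO-KD.

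Few NONO places were common to the 2 lists at these genes, 3 of 57 NC regions (5.26%, 1.81 to 14.4) beside 2.01% over the whole list, and 4 of 19 NONO-KD regions (21.1%, 8.51 to 43.3) beside 4.39%. Within 1 kb of the start, NONO was called in both lists at FOSL1 and JUN, against 3.14% of all genes, and in NC alone at JUNB and JUND, 2 of 9, where 20.3% of all genes had it. FOSL1, counted from either gene end, met this only at its lower end. The NONO-KD region there lay 865 to 689 bases outside the gene and touched the neighbouring gene CCDC85B. At JUN the NC region lay 96 to 364 bases after the start with 69 fragments, and the NONO-KD region 148 to 259 bases after it with 31 (21.1 to 44). The widest NONO region of the members was at the lower end of FOSL1 in NC, 1934 bp with 549 fragments at its summit (504 to 597), in a list in which 94.6% of regions were 269 bp wide. This region ran from 1573 bases outside FOSL1 to 360 inside it, with its summit 569 bases outside, and it also touched CCDC85B. The 2 NONO-KD regions that overlapped this NC region were 204 bp wide with 67 fragments (51.9 to 85.1) and 177 bp wide with 36 (25.2 to 49.8). The narrowest region was 269 bp in NC and 98 bp in NONO-KD, and the commonest background was 0.899 and 0.278. Widths and fragment counts are therefore not comparable between the 2 NONO lists, at FOSL1 or at JUN.

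**Figure D5:**
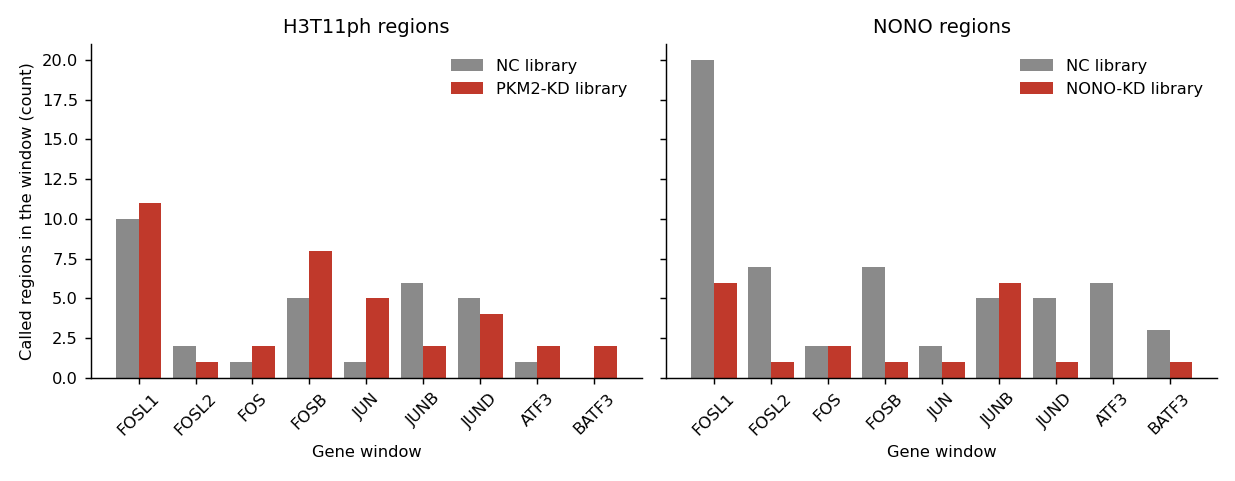
Number of called H3T11ph regions (left) and NONO regions (right) in each gene window in the NC library (grey bars) and the knockdown library (red bars), 1 library per bar. H3T11ph counts sum to 31 in NC and 37 in PKM2-KD, and NONO counts are lower in NONO-KD at all genes but FOS and JUNB.

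NONO and H3T11ph regions of these genes lay on H3K27ac more often than those of the whole lists. Of the members' H3T11ph regions in NC, 54.8% lay on H3K27ac regions of NC (17 of 31, Wilson 95% interval 37.8 to 70.8), against 19.7% of the list, and in PKM2-KD 62.2% did (23 of 37, 46.1 to 75.9), against 24.2%. Of the NONO regions in NC, 45.6% lay on H3K27ac (26 of 57, 33.4 to 58.4), against 16.8%. Much of this came from the densely acetylated FOSL1 window, where 15 of 20 NONO regions did so. Without FOSL1 the shares were 42.9% for H3T11ph in NC (24.5 to 63.5), 53.8% in PKM2-KD (35.5 to 71.2) and 29.7% for NONO (17.5 to 45.8). The windows were not matched to other genes for their acetylated share, so these values are descriptions. NONO and H3T11ph overlapped in NC at 4 of the 57 NONO regions (7.02%, 2.76 to 16.7), beside 2.95% of the whole list, which lies within that interval. Of these, 3 were at FOSL1, and at the other 8 genes 1 of 37 did (2.70%).

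The genes most like FOSL1 over the 6 lists, by the Euclidean distance of log2 covered bases per kb of window and leaving out windows that touch its own, were CRACR2B (distance 2.18), MIDN (2.26) and TNFRSF6B (2.26). Their H3K27ac coverage was 15.5%, 14.4% and 19.9% in NC and 31.4%, 31.6% and 35.5% in PKM2-KD, all below FOSL1. The nearest member was FOSB at a distance of 4.39 and the farthest BATF3 at 11.

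Genes around AP-1 showed a range of levels. The 13 other AP-1 and bZIP partners had a median of 6.48% of their windows acetylated in NC and 7.24% in PKM2-KD, beside 8.17% and 12.3% for the 9 members and 3.64% and 2.59% for all genes. Coverage was larger in PKM2-KD at 8 of the 13, against 31.1% of all genes as deposited and 74.5% with equal list lengths, and the same shares apply to the 2 lists that follow. The highest shares in NC were those of MAFG, at 20.4% and 35.6%, NFE2L2, the oxidative stress regulator that pairs with small Maf proteins, at 16.7% and 20.4%, and MAFF at 14.7% and 25.4%. MAFK, the remaining small Maf gene, was at 10% and 17.8%.

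The 12 kinases and factors upstream of AP-1, MAP kinases and the serum response and Elk factors, had medians of 4.73% and 4.32%, with more coverage in PKM2-KD at 2 genes, MAPK7 and ELK1, against 31.1% of all genes. SRF stood at 11.9% and 7.94%, and MAPK14, encoding p38α, at 10% and 9.49%. The 14 AP-1 target genes had medians of 7.50% and 9.23%, with more in PKM2-KD at 9, between the 31.1% of all genes as deposited and the 74.5% with equal list lengths. VIM was at 24.7% and 24.8%, HMGA1 at 19.8% and 26.1%, and PLAU, encoding urokinase, at 12.4% and 16.8%. CD44 and VIM are also among the mesenchymal markers above. The collagenase and stromelysin genes MMP1, MMP3 and MMP13, classical AP-1 targets, had at most 3.82% in either list.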

How the data were processed

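Chromatin of MDA-MB-231 cells was profiled by CUT&Tag with antibodies against NONO, H3T11ph and H3K27ac, and the 6 samples were placed in 6 groups of 1 from their titles. The authors deposited 1 narrowPeak list per library, and the submitters' processing notes name hg38, MACS2 2.1.1.20160309, cutadapt 1.18, FastQC 0.11.9 and SAMtools 1.3.1. The aligner, duplicate handling, calling options and control are not given in the sources used here. In the deposited lists the score is a rounded multiple of −log10 q, the fold ratio is that of the summit over the local background, and p-values and q-values are given as −log10. These values of the authors were used to rank or filter regions within a list.

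Covered bases and regions (overlap of at least 1 bp) were counted in the span of each gene in RefSeq (GRCh38.p14) plus 20 kb, for all 19970 protein-coding genes, with Python 3 scripts using pandas and scipy. The fold and −log10 p of a region fix the whole-number pileup at its summit, which served as the depth behind it. A match was within 0.002, or within a small fixed fraction of −log10 p where that was larger. At least 99.97% of 3000 rows tried in each list were matched (after multiplying by 0.521 in H3K27ac NC). These rows all had a −log10 p below 60, so the rate does not cover the tallest regions. All 425 member regions were matched, tall ones included. Shares have Wilson and pileups exact Poisson 95% intervals, which cover counting error only. The counting and the recovery were tested on simulated data. With 1 library per group no test between conditions was possible.

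The members and gene lists were chosen with earlier results of these data known. All 9 members are named, and of other lists at most 4 genes with the highest H3K27ac share in NC are given as examples. The values of 1 gene that this rule would name are not reported here. MAFK, MAPK7, ELK1 and the 3 metalloproteinase genes were named after their values were seen. Alternatives were other windows, a stricter q, summits in place of overlap, equal list lengths, a minimum width and, chosen after seeing the data, leaving out FOSL1.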

Additional observations from a re-analysis of the deposited data

How the results depend on the processing

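No paired analysis was possible because there was 1 library to a group. The sum of H3K27ac over the members in PKM2-KD was 118% of NC, and it was 144% with windows of 5 kb on both sides, 144% under the stricter q (−log10 of 5 or more), 145% with equal list lengths and 145% with regions of at least 2 times the narrowest width, so it stayed above 100% in each. The whole list was itself at 130% under the stricter q, 137% with equal list lengths and 136% with the minimum width. Values above 100% under these 3 settings are therefore not particular to the members. The 5 kb setting leaves the lists as they are, with the whole list at 69.6%. There, 7 members had more coverage in PKM2-KD, beside 34.9% of all genes. The H3T11ph region ratio of 119% turned to 95.7% with windows of 50 kb on both sides (46 regions in NC and 44 in PKM2-KD), and with wide regions only it was 233%, from 3 and 7 regions. The NONO ratio of 33.3% became 67.9% with equal list lengths and 66.7% with wide regions only, from 3 and 2 regions. The count of members with an H3K27ac region at the start in both lists was 8, and 4 when the region had to cover the start base. Without the FOSL1 window, a choice made after seeing the data, the 3 ratios were 117%, 124% and 35.1%. The causes of these differences were not tested. Small counts limit the H3T11ph and NONO values, since most members have fewer than 10 regions in a list.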
